A study of Mus musculus with 5 samples.

Results

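The expression of 9 chemokine receptor genes was followed in sorted dendritic cells of the mouse thymus. They were chosen by name (Ccr1, Ccr2, Ccr6, Ccr7, Ccr9, Cx3cr1, Cxcr3, Cxcr4 and Xcr1), and all 9 of 9 symbols were found among the 18051 genes of the count table. The mice were C57BL/6J, 6 to 8 weeks old, and gave 2 libraries from untreated animals and 3 from animals killed 4 days after total body irradiation (TBI). No other allele, transgene or agent is given for either group, and the radiation dose is not given in the sources used here. Thymi were pooled before the cells were sorted for CD45, for CD11c and for MHC class II. It is not stated that replicates came from separate pools, so the p-values rest on a spread between libraries that may be technical.

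Chemokine receptors are membrane proteins that couple to inhibitory G proteins and steer cells along gradients of small secreted proteins, the chemokines. In the thymus they are known to guide both developing T cells and the dendritic cells that present self-antigen to them. Ccr9 is known for bringing plasmacytoid dendritic cells to the thymus, Ccr2 and Cx3cr1 mark cells of monocyte and macrophage descent as well as some type 2 dendritic cells, Xcr1 marks type 1 dendritic cells, and Ccr7 marks mature dendritic cells. Of the 9 genes, 4 lie together on chromosome 9, and Cx3cr1 lies apart from them on the same chromosome.

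Start-site sequences were read for 8 of the 9 genes, and those of the 4 receptors with the largest differences between the groups are shown, because these genes share a stretch of chromosome 9 and moved in opposite directions. Each runs 5′ to 3′ on the gene's own strand, from 250 bases before the RefSeq start to 50 after it (GRCm38.p6). Capitals mark matches on either strand to GAGGAA (the core bound by PU.1), GAAANNGAA (interferon-stimulated element), CANNTG (E-box), ACGTG (hypoxia response core), TTNNGNAAT (C/EBP) and GGGNNTTTC (kappaB). No entry was found for Ccr7.
Ccr1 (chr9:123968643-123968942, minus strand): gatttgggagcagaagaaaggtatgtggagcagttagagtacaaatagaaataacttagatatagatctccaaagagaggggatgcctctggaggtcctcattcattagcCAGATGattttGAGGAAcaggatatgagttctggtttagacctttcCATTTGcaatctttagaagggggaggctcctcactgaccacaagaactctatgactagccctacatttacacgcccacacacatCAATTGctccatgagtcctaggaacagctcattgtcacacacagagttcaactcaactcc
Ccr2 (chr9:124101933-124102232, plus strand): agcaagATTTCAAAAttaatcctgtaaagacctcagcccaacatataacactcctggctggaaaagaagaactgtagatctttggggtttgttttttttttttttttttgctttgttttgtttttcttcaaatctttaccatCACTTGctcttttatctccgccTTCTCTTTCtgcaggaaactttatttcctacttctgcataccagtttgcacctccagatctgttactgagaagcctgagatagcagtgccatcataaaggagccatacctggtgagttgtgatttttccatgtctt
Ccr9 (chr9:123766961-123767260, plus strand): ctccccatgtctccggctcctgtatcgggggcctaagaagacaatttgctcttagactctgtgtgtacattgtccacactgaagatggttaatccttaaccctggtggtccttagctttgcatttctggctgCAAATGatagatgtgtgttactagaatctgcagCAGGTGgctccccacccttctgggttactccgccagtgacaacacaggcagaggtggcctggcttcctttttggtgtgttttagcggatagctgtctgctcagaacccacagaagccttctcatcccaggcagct
Xcr1 (chr9:123861980-123862279, minus strand): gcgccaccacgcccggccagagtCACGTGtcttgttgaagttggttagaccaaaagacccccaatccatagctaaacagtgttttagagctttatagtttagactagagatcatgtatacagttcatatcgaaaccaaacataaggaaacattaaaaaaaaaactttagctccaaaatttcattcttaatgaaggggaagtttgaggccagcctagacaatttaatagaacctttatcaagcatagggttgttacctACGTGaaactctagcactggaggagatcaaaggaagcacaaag
Ccr1 held a PU.1 core and 3 E-boxes, Ccr2 an interferon-stimulated element, an E-box and a C/EBP match, Ccr9 2 E-boxes, and Xcr1 an E-box whose letters also hold the hypoxia core on each strand, with a further hypoxia core after the start. Of 32851 windows of the same length, 72.3% held an E-box, 28.3% a PU.1 core, 19.6% the hypoxia core, 11.5% the C/EBP letters, 8.56% the interferon-stimulated element and 4.36% the kappaB letters. A match is a description of the letters and not a measured binding site.

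The libraries held 7227000 to 8428589 counts, at which 1 count equalled 0.124 to 0.145 CPM (counts per 1000000 counts of the scaled library total). The genes behind the sort were well covered in every library: Ptprc, which encodes CD45, lay between 867 and 1008 CPM, the CD11c gene Itgax between 156 and 315 CPM and the MHC class II gene H2-Ab1 between 9604 and 18069 CPM. On the second principal component, with 13.7% of the variance, TBI replicate 1 lay at 39.5 and the other TBI libraries at -23.8 and -21.0, so it stood apart. Monocyte markers summed to 4249 and 4805 CPM in untreated and 30439 to 36026 CPM in TBI libraries, and macrophage markers to 3541 and 4209.5 against 25542 to 28274 CPM. Most of the monocyte sum was Lyz2, a lysozyme gene that macrophages also express, with 1683 and 2161 CPM in untreated and 23965 to 31790 CPM in TBI libraries. These sums moved with the groups.

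The inflammatory receptors Ccr1 and Ccr2 were higher, and Ccr9 and Xcr1, known on plasmacytoid and type 1 dendritic cells, were lower 4 days after irradiation. Ccr1, Ccr2 and Cxcr4 rose, Ccr9 and Xcr1 fell, and Ccr6, Ccr7, Cx3cr1 and Cxcr3 did not pass an adjusted p of 0.05 in edgeR's quasi-likelihood test over 12046 genes. Thus 3 of the 9 were higher, where 13.3% of all tested genes were, and 2 were lower, where 9.79% were. In either direction 5 of 9 passed against 23.1% of all tested genes, and 4 of 9 passed and differed at least 2-fold against 15.4%. The receptors were chosen with earlier results of these data known, so an excess over these shares may follow in part from the choice. The median log2 fold change of the 9 was 0.05, beside -0.0054 over all tested genes. In 6 of the 9 the groups did not overlap, as in 56.1% of all tested genes. The shares of 13.3% higher and 9.79% lower also stand beside the counts of each gene list below. In bulk RNA, fewer cells of a type and less RNA per cell cannot be told apart.

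**Figure D1:**
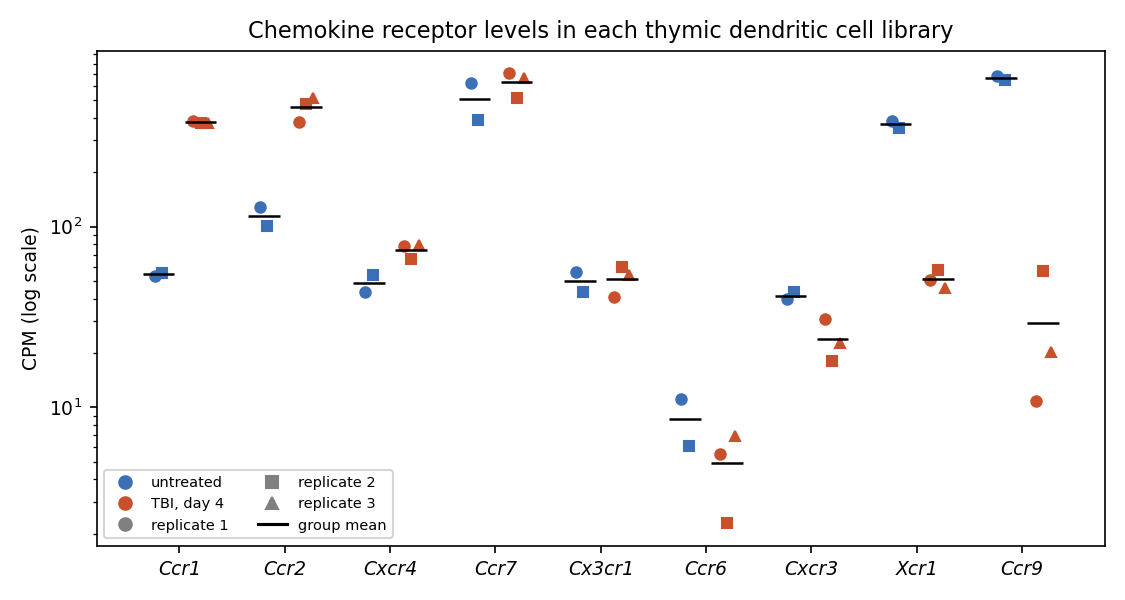
CPM of each of the 9 receptors (log axis) in the 2 untreated (blue) and 3 TBI (red) libraries. Each point is 1 library, its shape the replicate number, and black bars are group means. Ccr1 and Ccr2 lie higher in every TBI library, Xcr1 and Ccr9 lower, and Ccr7, Cx3cr1 and Ccr6 overlap.

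Ccr1, the receptor for Ccl3, Ccl5 and several other inflammatory CC chemokines on monocytes and macrophages, had 53.3 and 55.6 CPM in the untreated libraries and 384, 377 and 375 CPM in the TBI libraries. The groups lay far apart and the replicates close together, with the highest TBI library only 1.02 times the lowest. The group means were 54.4 ± 1.64 CPM (SD, n = 2) and 379 ± 4.78 CPM (SD, n = 3), a 6.96-fold rise. On the log2 scale this was 2.80 ± 0.13 (SE; adjusted p = 6.39e-06). Among the 12046 genes tested it ranked 455 from the highest log2 fold change. In GRCm38 Ccr1 (ENSMUSG00000025804.5) spans bases 123962124 to 123968692 of chromosome 9.

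Ccr2, the receptor for Ccl2, Ccl7 and Ccl12 by which monocytes leave the bone marrow, had 129 and 101 CPM in the untreated libraries and 379, 477 and 515 CPM in the TBI libraries. Every TBI library was above both untreated ones, and TBI replicate 1 was the lowest of the TBI libraries. It rose 3.97-fold, from 115 ± 19.5 to 457 ± 70.4 CPM (adjusted p = 1.52e-04), with a 95% confidence interval of 1.56 to 2.42 on the log2 scale. Ccr2 (ENSMUSG00000049103.14; chromosome 9, 124101950 to 124113557) belongs to a family of similar genes, and how reads that map to several genes were counted is not given, so its counts are uncertain to that extent. Among markers of macrophages, 15 of 18 were higher in the TBI libraries and 0 lower, led by Lyve1, Folr2 and Cd14, and no marker of that list was at 0 counts in either group throughout. Of 12 tested monocyte markers 4 were higher, among them Lyz2, F13a1 and Fn1, and 4 were lower, among them Ly6c2 and Plac8, which were named after their values were seen. Type 2 dendritic cell markers, some of which macrophages share, had 5 of 10 higher (led by Itgam and Clec4a2) and 3 lower (led by Cd4). Of 10 tested neutrophil markers 3 were higher and 1 lower, and their sum differed between the untreated libraries (55.4 and 439 CPM), with Mpo and Elane at 0 counts in every TBI library. The part of these cell types in the rise of Ccr1 and Ccr2 was not tested.

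Ccr9, the receptor for the thymic chemokine Ccl25 on plasmacytoid dendritic cells and thymocytes, had 681 and 650.3 CPM in the untreated libraries and 10.9, 56.8 and 20.3 CPM in the TBI libraries. The untreated libraries were nearly alike and the TBI libraries were spread 5.23-fold, with TBI replicate 2 the highest, yet every TBI library was far below both untreated ones. Its level fell by 4.50 on the log2 scale (SE 0.54, 95% interval -5.75 to -3.25; adjusted p = 6.22e-04), 22.6-fold lower, and ranked 58 from the lowest among all tested genes. Leaving out TBI replicate 2 gave -5.41 and leaving out TBI replicate 1 gave -4.11. Ccr9 (ENSMUSG00000029530.16; chromosome 9, 123678439 to 123784330) has a gene model with 2201 exonic bases shared with other genes, among them Slc6a20a on the opposite strand, and the strand setting of the counting is not given. Slc6a20a itself had 20 and 17 counts in untreated and 0, 0 and 2 in TBI libraries, where Ccr9 had 5512 and 5137 untreated counts. How reads in the shared bases were assigned is not given, so these counts do not measure what the overlap added or cost.

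Plasmacytoid dendritic cell markers, with the receptors left out, moved with Ccr9. Of 14 such markers 12 were lower and 0 higher, led by Klk1, Pacsin1 and Smim5, and the list summed to 3408 and 3451 CPM in untreated and 633 to 743 CPM in TBI libraries. Siglech, a defining receptor of these cells, had 1074 and 1079.5 CPM in untreated libraries and 15.2, 45.5 and 62.1 CPM in TBI libraries, and no marker of the list was at 0 throughout either group. Siglech was highest in TBI replicate 3 and Ccr9 in TBI replicate 2. Of the 14 plasmacytoid markers, 7 were highest of the TBI libraries in replicate 2, as Ccr9 was, beside 27.3% of all tested genes. This was not particular to plasmacytoid markers: 5 of 9 tested B cell and 7 of 18 macrophage markers were also highest there. For T cell and thymocyte markers it was 6 of 19, and for type 2 dendritic cell markers 1 of 10. T cell and thymocyte markers, led by Cd8a, Cd28 and Cd5, summed to 3982 and 4532 CPM in untreated and 2473 to 2633 CPM in TBI libraries, and 12 of the 19 were lower and 2 higher. The part of either cell type in the fall of Ccr9 was not tested.

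Xcr1, the receptor for Xcl1 that marks type 1 dendritic cells, had 384 and 353 CPM in the untreated libraries and 50.9, 57.5 and 46.0 CPM in the TBI libraries. The groups did not overlap and replicates within each lay within 1.25-fold of each other. It fell by 2.84 on the log2 scale (SE 0.14; adjusted p = 8.06e-06), from 368 ± 22.2 to 51.5 ± 5.78 CPM, 7.15-fold lower. Of 14 other type 1 markers 12 were lower, among them Cd207, Gcsam and Irf8, a transcription factor these cells need, and 0 were higher. The list summed to 7308 and 7876 CPM in untreated and 2118 to 2464 CPM in TBI libraries. Batf3 (log2 0.69, adjusted p = 0.107) and Cd24a (log2 0.017, adjusted p = 0.951) did not pass. Every TBI library was above both untreated ones for Batf3. The part of type 1 dendritic cells in the fall of Xcr1 was not tested. Xcr1 (ENSMUSG00000060509.4) lies on chromosome 9, 123852315 to 123862029.

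**Figure D2:**
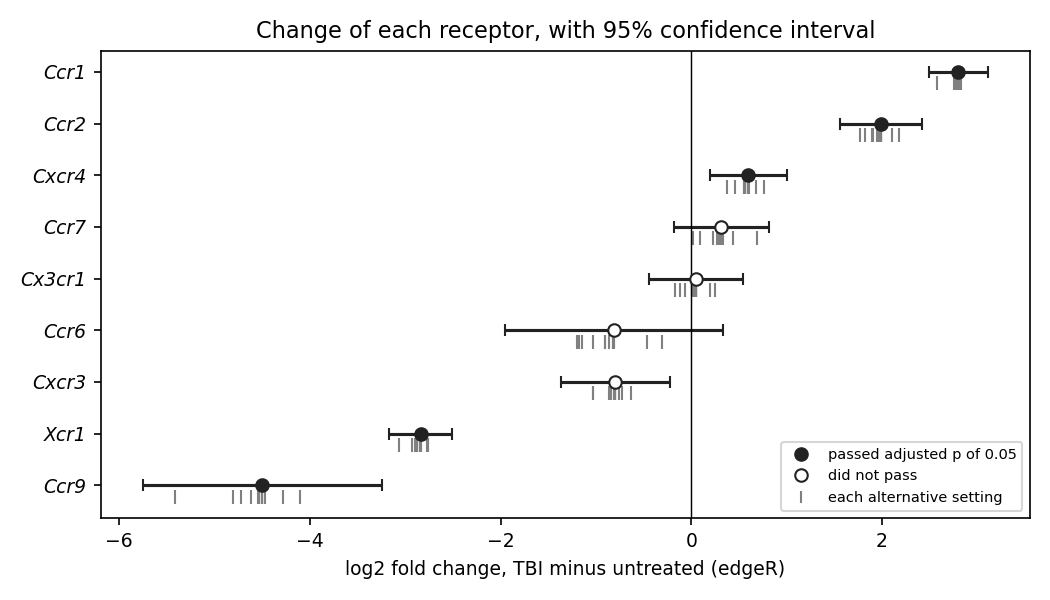
Log2 fold change of each receptor, TBI minus untreated, from edgeR, with its 95% confidence interval; filled points passed an adjusted p of 0.05, open points did not, and grey ticks give each alternative setting or left-out library. Ccr1, Ccr2, Xcr1 and Ccr9 keep their direction at every tick, and the ticks of Cx3cr1 lie on both sides of 0.

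Ccr7, which leads mature dendritic cells toward Ccl19 and Ccl21, had 625 and 390.0 CPM in the untreated libraries and 707, 518 and 668 CPM in the TBI libraries. The groups overlapped, and untreated replicate 2 was the lowest of all 5 libraries. The log2 fold change was 0.31 with a 95% interval of -0.18 to 0.81 and did not pass (adjusted p = 0.340). It was 0.69 without untreated replicate 1 and 0.015 without untreated replicate 2. Of 14 other mature dendritic cell markers 4 were higher (led by Marcksl1 and Cd83) and 5 lower (led by Cacnb3), with a median of -0.32. Of the 14, 12 were higher in untreated replicate 1 than in untreated replicate 2, as was Ccr7, beside 50.3% of all tested genes. This was not particular to mature cells: 16 of 18 macrophage and 16 of 19 T cell and thymocyte markers were also higher there. Only 2 of 14 type 1 dendritic cell markers and 1 of 10 neutrophil markers were. Ccr7 (ENSMUSG00000037944.8) lies on chromosome 11, 99144196 to 99155077.

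Cxcr4, the receptor for Cxcl12 that retains blood cells in the bone marrow and guides early thymocytes, had 43.7 and 54.2 CPM in the untreated libraries and 77.8, 65.9 and 78.9 CPM in the TBI libraries. All TBI libraries were above both untreated ones, by a margin smaller than for Ccr1 or Ccr2. It rose 1.52-fold (log2 0.60 ± 0.18 SE; adjusted p = 0.0419), close to the threshold. The call was lost with upper quartile scaling (adjusted p = 0.0528), with scaling by library size alone (0.153) and with no filter on low counts (0.0550), and when any library other than TBI replicate 1 was left out (0.0561 to 0.389). Cxcr4 (ENSMUSG00000045382.6) lies on chromosome 1, 128588199 to 128592293.

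Cxcr3, the receptor for the interferon-induced Cxcl9 and Cxcl10 on plasmacytoid dendritic cells, T cells and natural killer cells, had 39.5 and 43.4 CPM in the untreated libraries and 31.0, 18.0 and 22.8 CPM in the TBI libraries. Every TBI library was below both untreated ones, yet the difference did not pass (log2 -0.80 ± 0.25 SE; adjusted p = 0.0512). It passed with DESeq2 (adjusted p = 0.0249), with limma-voom (0.0332), with the stricter filter (0.0470) and without TBI replicate 1 (log2 -1.03, adjusted p = 0.00330). Scaling by upper quartiles (0.0423), by the size factors of DESeq2 (0.0482) or by library size alone (0.0173) also gave a call. It did not pass with no filter on low counts (0.0604), with edgeR's robust option (0.0503), or without TBI replicate 2 (0.116) or 3 (0.110). Nor did it pass when either untreated library was left out. The log2 value was then -0.86 without untreated replicate 1 and -0.73 without untreated replicate 2. Of the cell types known to bear Cxcr3, plasmacytoid dendritic cells had 12 of 14 markers lower and 0 higher, and T cells and thymocytes 12 of 19 lower and 2 higher. Natural killer and innate lymphoid markers had 10 of 15 higher and 1 lower, led by Gzmb, Gzma and Il2rb, and the list summed to 347 and 349.8 CPM in untreated and 1664 to 2085 CPM in TBI libraries. The part of these cell types in the values of Cxcr3 was not tested. Cxcr3 (ENSMUSG00000050232.6) lies on chromosome X, 101731535 to 101734269.

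Cx3cr1, the receptor for the membrane-bound chemokine Cx3cl1 on patrolling monocytes and tissue macrophages, had 56.1 and 43.4 CPM in the untreated libraries and 41.0, 59.8 and 53.9 CPM in the TBI libraries. The groups overlapped, in the same libraries in which most macrophage markers were higher. Its log2 fold change was 0.05 with a 95% interval of -0.44 to 0.55 (adjusted p = 0.888), and its sign changed when untreated replicate 2 (-0.12) or TBI replicate 2 (-0.069) was left out. Ccr6, the receptor for Ccl20 on B cells and some dendritic cells, was the least abundant, with 90 and 48 counts in the untreated libraries and 38, 18 and 53 in the TBI libraries. The counts of Ccr6 overlapped between the groups (log2 -0.81, 95% interval -1.96 to 0.33; adjusted p = 0.285), and the log2 value was -0.31 without untreated replicate 1 and -0.47 without TBI replicate 2. B cell markers, 6 of 9 tested higher and 2 lower, summed to 206 and 219 CPM in untreated and 306 to 452 CPM in TBI libraries, with Pax5 at 0 counts in both untreated libraries. Cx3cr1 (ENSMUSG00000052336.7) lies on chromosome 9, 119901616 to 120069879, and Ccr6 (ENSMUSG00000040899.14) on chromosome 17, 8236043 to 8257141.

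Levels were compared between the receptors per kilobase of exon. In untreated cells Ccr7 came first with 256 ± 83.9 CPM per kilobase, followed by Xcr1 (82.7 ± 4.98), Ccr9 (64.9 ± 2.12), Cxcr4 (27.1 ± 4.08), Cxcr3 (24.0 ± 1.58), Ccr1 (19.2 ± 0.578), Ccr2 (17.0 ± 2.89), Cx3cr1 (11.0 ± 1.99) and Ccr6 (3.71 ± 1.54). Ranges of Cxcr4 and Cxcr3 overlapped, as did those of Ccr1 and Ccr2, and the other neighbours in this order did not. After TBI the order was Ccr7 (319 ± 50.5), Ccr1 (134 ± 1.69), Ccr2 (67.6 ± 10.4), Cxcr4 (41.0 ± 3.98), Cxcr3 (13.8 ± 3.79), Xcr1 (11.6 ± 1.30), Cx3cr1 (11.4 ± 2.14), Ccr9 (2.86 ± 2.36) and Ccr6 (2.11 ± 1.03). Here Cxcr3, Xcr1 and Cx3cr1 overlapped one another, as did Ccr9 and Ccr6. Ccr7 thus held first place in both groups, while Ccr1 moved from the sixth place to the second and Ccr9 from the third to the eighth. The order depends on the length used: per kilobase of coding sequence Ccr9 came first in untreated cells (601 ± 19.7 against 447 ± 146 for Ccr7). After TBI the mean of Ccr2 then came before that of Ccr1, though their ranges overlapped (338 to 460 against 352 to 361).

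Several chemokines that bind these receptors rose in the same libraries, among them Ccl2, Ccl6, Ccl7 and Ccl9. Of 15 tested chemokines on the ligand list, which also holds Ccl8 and Ccl4, whose main receptors in the mouse are not among the 9, 11 were higher and 2 (Ccl4 and Cxcl9) lower, with a median log2 fold change of 3.20 beside -0.0054 over all tested genes. Ccl9 and Ccl6, which act on Ccr1, went from 39.1 ± 2.87 to 1526 ± 223 CPM (5.29 ± 0.19 on the log2 scale; adjusted p = 3.01e-06) and from 307 ± 55.6 to 4919 ± 795 CPM (4.00 ± 0.20; adjusted p = 6.41e-06). Ccl2, the main Ccr2 ligand, went from 7.12 ± 0.939 to 529 ± 94.6 CPM (6.21 ± 0.24), and Ccl7, which acts on both receptors, rose by 7.34 ± 0.29. Thus ligands and receptor rose together for Ccr1 and Ccr2. Ccl8, in mouse a ligand of Ccr8, rose by 5.65 ± 0.25, and Ccl12, a further Ccr2 ligand, by 3.20 ± 0.31. Smaller rises of Ccl3 (0.71 ± 0.21) and Ccl5 (0.83 ± 0.22) were not called with library size alone or when either untreated library was left out. Nor was Ccl3 called with upper quartile scaling, with no filter or without TBI replicate 2, or Ccl5 without TBI replicate 3. Ccl4 fell by 1.57 on the log2 scale.

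Ligand and receptor went different ways for Xcr1. Xcl1, made chiefly by natural killer and T cells, had 33 and 84 counts in untreated and 1555, 971 and 980 in TBI libraries and rose by 4.43 ± 0.45, while its receptor fell. Cxcl12, the ligand of Cxcr4 made chiefly by stromal cells, had 7 and 17 counts against 173, 144 and 165 (3.83 ± 0.41). Of 11 tested mesenchymal, endothelial and epithelial markers 4 were higher and 2 lower, their sums were 64.1 and 69.6 CPM in untreated and 48.9 to 243 CPM in TBI libraries, and Pdgfra and Tie1 were at 0 in all 5 libraries. Their part in the rise of Cxcl12 was not tested. The Cxcr3 ligands split: Cxcl10 rose from 271 and 285 counts to 929, 939 and 831 (1.79 ± 0.17) and Cxcl9 fell from 56.0 ± 0.0160 to 18.0 ± 9.76 CPM (-1.64 ± 0.38), a fall not called when either untreated library was left out. Ccl25 (0.77 ± 0.32; adjusted p = 0.120) and Cx3cl1 (0.53 ± 0.36; adjusted p = 0.335), ligands of Ccr9 and Cx3cr1, did not pass. Ccl19, Ccl20 and Cxcl11 had too few counts to be tested and Ccl21a was not matched.

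**Figure D3:**
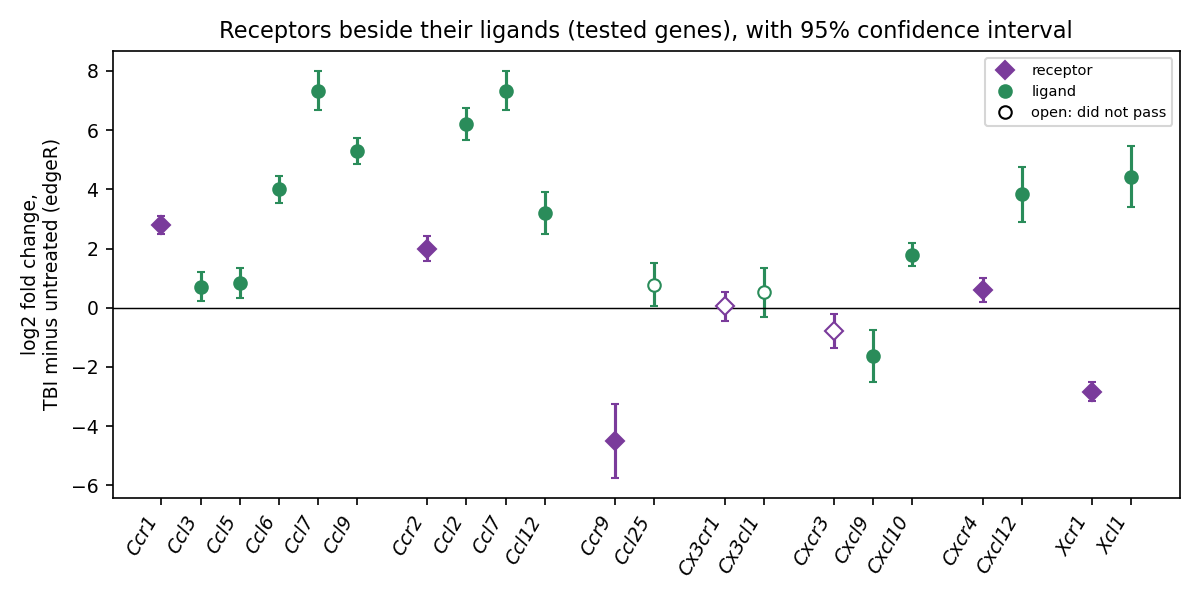
Log2 fold change (TBI minus untreated, edgeR) with 95% confidence interval of 7 receptors (diamonds), each beside its tested ligands (circles); open symbols did not pass the adjusted threshold, which is stricter than an interval that leaves out 0. Ligands of Ccr1 and Ccr2 lie above 0 with their receptors, and Xcl1 lies at 4.43 where Xcr1 lies at -2.84.

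Chemokine receptors outside the 9 moved in both directions as well. Of 15 others 10 were tested, 5 were higher and 2 lower, with a median of 1.02. Of all tested genes 13.3% were higher and 9.79% lower. Cxcr6, the receptor for Cxcl16 on natural killer T and tissue-resident lymphocytes, went from 46 and 64 counts to 635, 771 and 693 (3.76 ± 0.22; adjusted p = 1.48e-05). Ackr3, an atypical receptor that takes up Cxcl12, went from 12 and 3 counts to 445, 267 and 326 (5.62 ± 0.52). Cxcr5, the receptor for the B cell chemokine Cxcl13, rose by 2.61 ± 0.27, the chemerin-binding Ccrl2 by 2.29 ± 0.15 and Ccr8 by 1.09 ± 0.21. Ccr4, the receptor for Ccl17 and Ccl22, fell by 2.96 on the log2 scale, from 28.9 ± 2.69 to 3.73 ± 1.98 CPM, and the eotaxin receptor Ccr3 by 1.21, from 55.7 ± 8.20 to 24.1 ± 8.36 CPM. Ccr3 was not called without TBI replicate 3 or when either untreated library was left out, and Ccr8 was not called when either untreated library was left out. Cxcr2 (0.96 ± 0.32) and Ccr1l1 (0.19 ± 0.93) did not pass, and Ccr10, Cxcr1, Ackr1, Ackr2 and Ackr4 were too low to test.

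Of 33 genes that carry or end the receptor signal, all tested, 10 were higher and 4 lower, beside 13.3% and 9.79% of all tested genes. Their median log2 fold change was 0.21. Pik3r6, a regulatory subunit of the phosphoinositide 3-kinase downstream of G proteins, rose by 1.94 ± 0.21 (adjusted p = 3.06e-04). Rgs16 and Rgs1, which switch off G protein signals, rose by 2.77 ± 0.50 and 0.99 ± 0.16, and Rac2 and Rac1, which act on the actin skeleton in cell movement, by 0.70 ± 0.12 and 0.62 ± 0.12. Plcb2, a phospholipase activated by G proteins, fell by 1.10 on the log2 scale. Rac1 was not called when either untreated library was left out, and Rac2 and Plcb2 were not called without untreated replicate 2. Scaling by library size alone gave 6 higher and 9 lower. Leaving out untreated replicate 1 gave 4 higher and 1 lower, and leaving out untreated replicate 2 gave 3 and 1. Leaving out TBI replicate 1 gave 14 and 7, and leaving out TBI replicate 2 gave 7 and 2.

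Neighbouring genes in the chromosome 9 cluster did not share a direction. In order along the chromosome from Slc6a20a to Ccr2, Slc6a20a, Ccr9 and Lztfl1 were lower, Fyco1 did not pass, Cxcr6 was higher, Xcr1 lower, Ccr1 higher, Ccr1l1 did not pass, Ccr3 was lower and Ccr2 higher. Xcr1 (-2.84) thus lay between Cxcr6 (3.76) and Ccr1 (2.80), and Ccr3 (-1.21) between Ccr1 and Ccr2 (1.99). Lztfl1 lies within the span of Ccr9 on the opposite strand, with no annotated exonic bases shared. Slc6a20a shares exonic bases with Ccr9 and had few counts. The strand setting of the counting is not given, so the falls of Slc6a20a and Lztfl1 may not be separate from that of Ccr9. Slc6a20a and Lztfl1 were not called when either untreated library was left out, nor was Lztfl1 without TBI replicate 3. This stretch was chosen after the data were seen, because Ccrl2, which the intended stretch was to reach, lies far from the others in the mouse.

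**Figure D4:**
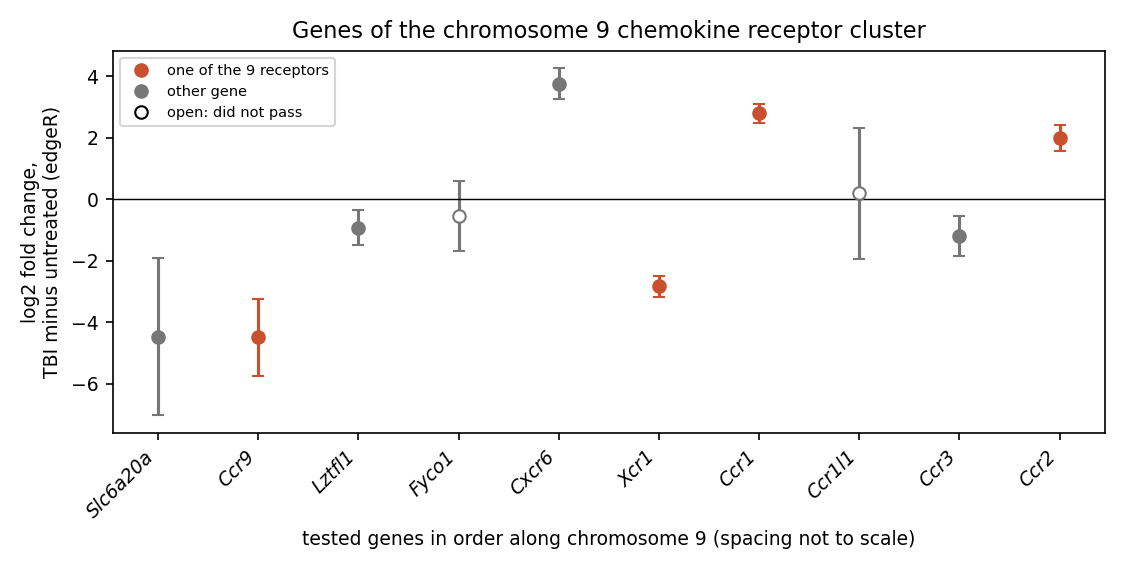
Log2 fold change (TBI minus untreated, edgeR) with 95% confidence interval for the tested genes from Slc6a20a to Ccr2, in chromosome order and not to scale; red marks 4 of the 9 receptors, grey other genes, and open points did not pass. Rises and falls are mixed along the cluster, with Xcr1 at -2.84 next to Cxcr6 at 3.76 and Ccr1 at 2.80. Lztfl1 lies within the span of Ccr9, and Slc6a20a overlaps Ccr9 and had few counts.

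The genes whose profile over the 5 libraries was most like that of Ccr1 were Pltp, Adgre1 and Kank3, with root mean square differences of 0.053, 0.073 and 0.074 in centred log2(CPM + 1). Adgre1, the gene of the macrophage marker F4/80, had 181 and 174 CPM in untreated and 1122, 1196 and 1105 CPM in TBI libraries. Those most like Ccr9 were Adam23 (0.25), Cd209e (0.29) and Paqr5 (0.39). Adam23 had 125 and 120.1 CPM in untreated and 2.46, 9.89 and 3.40 CPM in TBI libraries, and was highest of the TBI libraries in replicate 2, as Ccr9 was. The measure is over 5 libraries in 2 groups, so the difference between the groups and the spread within each both enter it. The likeness of Adam23 to Ccr9 among the TBI libraries thus follows in part from how Adam23 was picked.

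**Figure D5:**
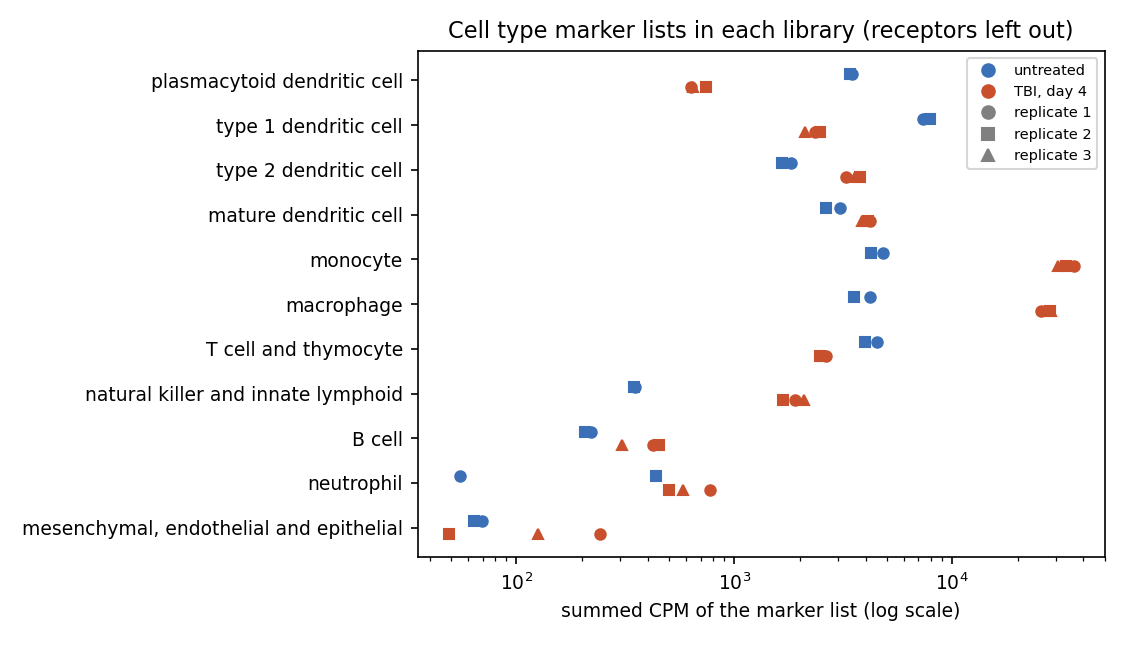
Summed CPM (log axis) of 11 cell type marker lists in each library, with the receptors left out of every list; blue is untreated, red TBI, and shapes are replicate numbers. Plasmacytoid and type 1 dendritic cell sums are lower in every TBI library, and macrophage and natural killer sums are higher. The monocyte sum is higher too, carried mostly by Lyz2, while 4 of its 12 tested markers were higher and 4 lower.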

How the data were processed

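RNA from sorted thymic dendritic cells was sequenced in 5 libraries (SMART-Seq v4 kit, per the labels' protocols). The submitters used STAR 2.5.2a, mm10 and featureCounts 1.6.0, per the submitters' processing notes; the annotation, strand setting and treatment of multiply mapped reads are not given in the sources used here. The authors deposited raw read counts, 1 row for each gene symbol. There are no molecular identifiers. The irradiated samples are named by a different day in a protocol note, and day 4 was taken from the titles and tags. Columns of other samples numbered 0.

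Testing used edgeR 4.0.16 (R 4.3.3) with TMM scaling, filterByExpr at a minimum count of 10 and a minimum total of 15, its quasi-likelihood test with group as the only term, and Benjamini-Hochberg adjustment over 12046 genes. CPM values use TMM-scaled totals, values after ± are SD for levels and SE for log2 fold changes, and intervals are 95%. Alternatives used DESeq2 1.42.0, limma 3.58.1, other scalings and filters, and each library left out. Positions and exon lengths came from GENCODE on GRCm38 (mm10), promoters from RefSeq, and 3 older symbols were matched through RefSeq synonyms. Functions were tested on simulated data. Named genes were the 9 receptors, the other receptors, ligands and chromosome 9 neighbours, up to 6 signalling genes and 3 markers per list by p, and the 3 genes most like the receptors with the largest rise and fall. Slc6a20a is among the neighbours, and Ptprc, Itgax, H2-Ab1, Siglech, Batf3 and Cd24a were chosen after their values were seen. The receptors, lists and rules were chosen with earlier results of these data known. Figures were drawn with matplotlib 3.10.9. Some results are not reported here.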

Additional observations from a re-analysis of the deposited data

How the results depend on the processing

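Ccr1, Ccr2, Ccr9 and Xcr1 kept their direction and their call in all 14 alternatives (other scalings, filters and tests, the block and each library left out), and Ccr6 and Ccr7 never passed. Cxcr3 was called with DESeq2 size factors (log2 -0.80), upper quartile scaling (-0.84), library size alone (-1.03), DESeq2 (-0.80) and limma-voom (-0.84). It was also called with the stricter filter of 1 CPM in 3 libraries and 100 counts in all (-0.80). With no filter (-0.80) or edgeR's robust option (-0.80) it was not called. It ranged from -1.03 to -0.63 with a library left out, and of these fits was called only without TBI replicate 1. Cxcr4 was not called with upper quartile scaling (0.56), library size alone (0.37) or no filter (0.59), and ranged from 0.45 to 0.76 with a library left out. Cx3cr1 changed sign with library size alone (-0.17) and ranged from -0.12 to 0.25 with a library left out, never called. Ccr1l1 was at -0.021 with library size alone and ranged from -0.43 to 1.30 with a library left out. Library size alone moved the median of all genes from -0.0054 to -0.23, so its values are shifted by that amount, and called 2129 genes lower instead of 1179, with 36.8% of calls higher instead of 57.6%. With a library left out, genes called higher ranged from 810 to 2148 and lower from 423 to 1780. The cause was not tested. Leaving out an untreated library leaves 1, which is then assumed to vary like the TBI libraries.

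Same-numbered libraries did not deviate together (correlations -0.014 and -0.011), so the numbers are not taken to pair them. With the replicate number as a block, 1493 genes were higher and 1284 lower, Cxcr4 was at 0.56 (adjusted p = 0.111) and not called, Ccr1l1 was at -0.28, and no other receptor of the 9 changed its call. At 3 to 12 counts a library, the 95% interval of Ccr1l1 ran from -1.95 to 2.33.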
